A study of Homo sapiens with 6 samples.

Results

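The 53 genes described here encode the machinery that makes ribosomes: subunits and factors of RNA polymerase I, small nucleolar ribonucleoproteins (snoRNPs), and the assembly factors of the small and the large ribosomal subunit. They were taken by name as a list of ribosome biogenesis genes, and all 53 were among the 16781 genes of the deposited table and among the 13028 genes with enough counts to be tested. The lowest count of any of them in any library was 42, so none was lost to the filter on low counts. They lie on 20 chromosomes, with 9 of them on chromosome 2, and were read in 5 role lists: 8 genes of RNA polymerase I and its factors, 9 snoRNP proteins and nucleolar organisers, 14 genes of the small subunit processome, 6 genes of later small subunit assembly and 16 genes of large subunit assembly.

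RNA was sequenced from Caco-2 cells, an established human colon adenocarcinoma line, in 3 libraries of unmodified cells (WT) and 3 libraries of cells in which CBS had been knocked out stably with CRISPR/Cas9 (CBS KO). CBS is the enzyme that joins homocysteine and serine and can release hydrogen sulfide. The CBS KO cells had been infected with lentivirus produced in 293 T cells, which delivered Cas9, the guide and puromycin resistance, and they were used as the pool that survived puromycin. Cells with an empty vector are not analysed here, and the effects of losing CBS, of infection and of puromycin cannot be told apart. Whether the 3 libraries of a group were separate cultures is not in the labels, and the p-values measure the spread between libraries only, which can be technical.

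Ribosome production starts in the nucleolus, where RNA polymerase I transcribes the ribosomal DNA into a long precursor RNA. UBTF marks the active ribosomal DNA repeats and RRN3 brings the polymerase to them. Box C/D and box H/ACA snoRNPs modify the precursor, the small subunit processome folds and cuts its first part, and a separate chain of helicases, GTPases and scaffold proteins builds the large subunit before both are exported. In tumour cells of the gut epithelium this pathway is known as a target of MYC, which binds the E-box CACGTG near the start of many of its genes.

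Counts summed to between 16097680 and 16176745 in the WT libraries and to between 12805180 and 14307287 in the CBS KO libraries. Levels below are counts per 1000000 counts, scaled by edgeR's trimmed mean of M values (CPM), unless FPKM is named. FPKM values, which take account of length, were used as deposited, without this scaling. The ratio of FPKM to CPM was not fixed for each gene. In the WT libraries MDN1 stood at 99.97, 94.2 and 110.5 CPM and at 7.41, 7.1 and 12.63 FPKM. CBS itself stood at 48.8, 52.99 and 50.6 CPM in WT and at 24.6, 18.5 and 25.4 CPM in CBS KO, with a log2 fold change of -1.15 (SE 0.10, adjusted p = 1.18e-08). An mRNA level does not measure the protein. CBS has a copy, CBSL, and how reads that match both were counted is not given in the sources used here. Of 8 epithelial markers, VIL1, CDH17, KRT8, KRT18, EPCAM and CDX2 were present in every library, KRT20 stood below 5 CPM, and CDX1, an intestinal homeobox gene, was at or near 0; their sum, scaled here by the library total, was 5560 to 6290 CPM in WT and 5930 to 6110 CPM in CBS KO. CDX2 went from 322 to 338 CPM in WT to 67.1 to 68.5 CPM in CBS KO. On the same scale the fibroblast list (4 of 5 genes in the table) summed to 229 to 258 CPM in WT and 162 to 178 CPM in CBS KO, mostly from COL1A1, with COL1A2 at or near 0. The immune list (3 of 4) summed to 9.71 to 11.9 and 3.77 to 4.22 CPM, with PTPRC at or near 0, and the endothelial list (3 of 3) to 28.8 to 32.9 and 8.20 to 8.60 CPM, mostly from PECAM1. The part of these differences in the results below was not tested, and in bulk RNA fewer cells of a type and less RNA per cell cannot be told apart.

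Because the E-box is the sequence most tied to this pathway, it was looked for in promoter windows from RefSeq (GRCh38.p14), which run from 250 bases before to 50 bases after the start of a gene and were found for 43 of the 53 genes. RefSeq lists several windows, for several starts, for 8 of the 43. CACGTG reads the same on both strands. Of the 12 genes with a window that fell at least 2-fold in CBS KO, 5 hold it, and POLR1A, which fell furthest, does not. The stretches of up to 30 bases around it are shown for the 5 genes with a window that fell at least 2-fold in CBS KO and hold it, for GNL2, DDX21 and GNL3, which rose and hold it, and for FBL, PNO1 and NOC3L, which hold it and did not pass the test. Those of DDX21 and GNL3 come from their second listed window, and the others from the first. They run along the direction of transcription, and the capitals mark the E-box.
MYBBP1A: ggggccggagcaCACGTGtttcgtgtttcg
NAT10: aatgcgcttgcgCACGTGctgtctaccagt
BYSL: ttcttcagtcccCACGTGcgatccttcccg
RRP9: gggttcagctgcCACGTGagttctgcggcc
NOP2: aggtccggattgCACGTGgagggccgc
GNL2: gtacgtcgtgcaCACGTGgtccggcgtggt
DDX21: ggccgggtgtccCACGTGgtccccggcgac
GNL3: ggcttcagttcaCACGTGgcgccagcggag
FBL: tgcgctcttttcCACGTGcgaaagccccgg
PNO1: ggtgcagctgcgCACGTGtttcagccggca
NOC3L: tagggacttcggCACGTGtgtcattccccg

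The stretches lie on the minus strand at chr17:4555340-4555369 (MYBBP1A), chr3:51941892-51941921 (RRP9), chr12:6568242-6568268 (NOP2), chr1:37595917-37595946 (GNL2), chr19:39846356-39846385 (FBL) and chr10:94362903-94362932 (NOC3L). Those of NAT10 (chr11:34105602-34105631), BYSL (chr6:41921515-41921544), DDX21 (chr10:68956604-68956633), GNL3 (chr3:52686026-52686055) and PNO1 (chr2:68157885-68157914) lie on the plus strand. The E-box begins 15 bases before the start in NAT10, 5 bases before it in RRP9 and 31 bases before the second start in DDX21. In the others it begins after the start, by 27 bases in MYBBP1A, 28 in BYSL, 35 in NOP2, 3 in GNL2, 6 in GNL3 (second start), 6 in FBL, 9 in PNO1 and 19 in NOC3L.

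In CBS KO cells most of the ribosome biogenesis genes fell. Of the 53, 38 were lower, 6 were higher and 9 did not pass the test at an adjusted p under 0.05, against a background of 38.9% of all genes tested called lower and 38.4% called higher (77.2% in either direction). The shares were 71.7% lower and 11.3% higher for the 53 genes. At least 2-fold lower were 15 of them, where the background was 11.5% of genes tested, and at least 2-fold higher were 0, where it was 12%. The median log2 fold change of the 53 genes was -0.68, with quartiles at -1.10 and -0.15, and that of all genes tested was -0.01. Of the 53, 44 lay below the median of all genes.

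In 41 genes every CBS KO library lay below every WT library, which 40.1% of all genes tested showed, and in 7 every CBS KO library lay above, which 38.9% showed. All 38 lower calls and all 6 higher calls were among these. The falls reached 4.67-fold (POLR1A) and the rises 1.82-fold (DDX21). The 6 genes called higher were POLR1D, DDX21, NPM1, NOB1, GNL2 and GNL3.

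**Figure D1:**
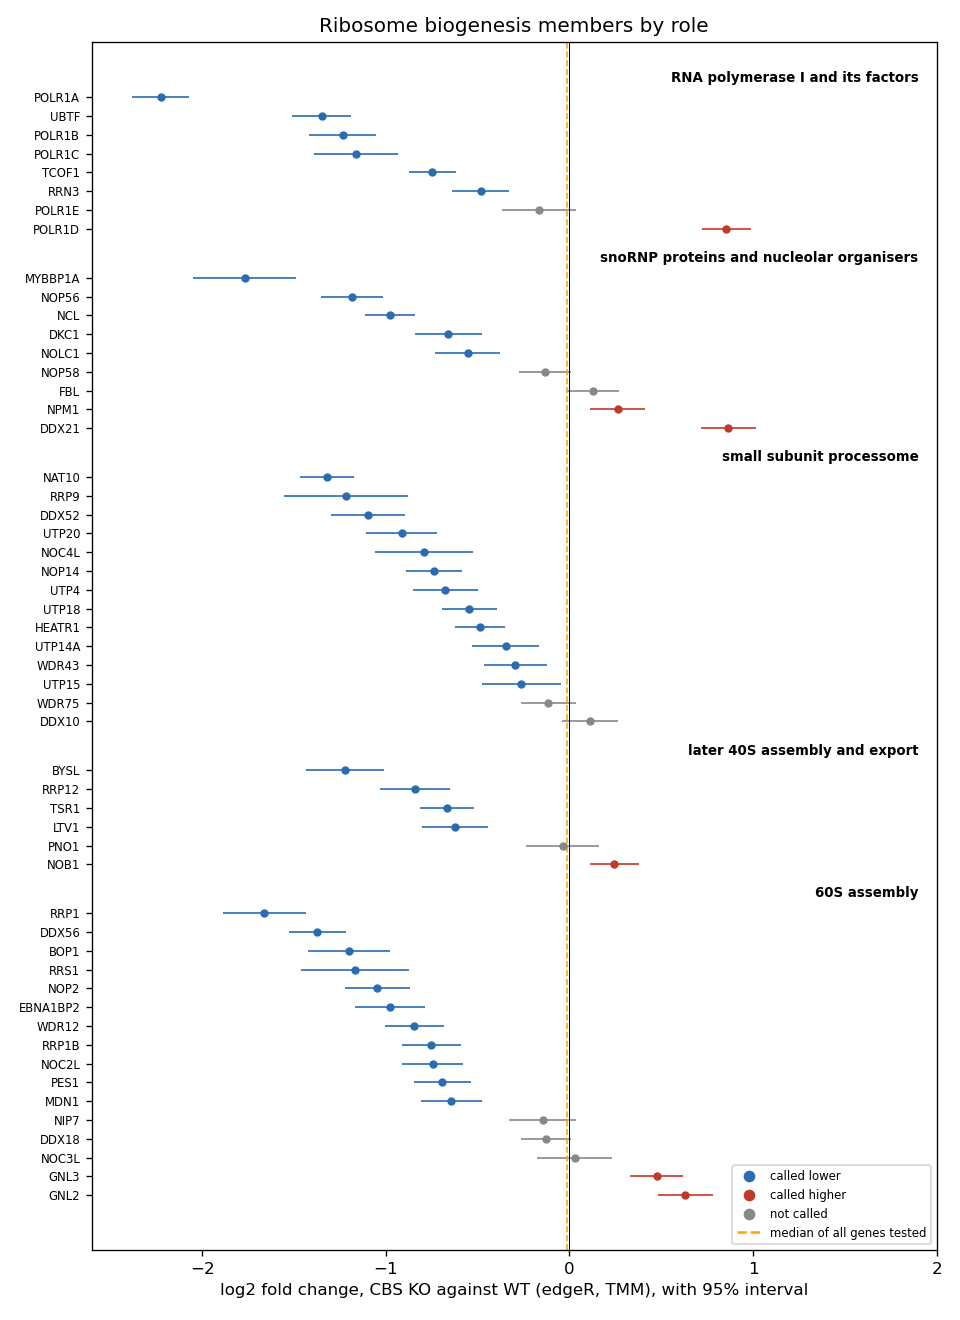
Log2 fold change of CBS KO against WT for each of the 53 genes, by role list, with its 95% interval; the horizontal axis is in log2 units and the dashed line is the median of all genes tested (-0.01). The 38 genes called lower run from POLR1A at -2.22 to UTP15 at -0.26, and the 6 called higher reach 0.87 in DDX21.

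The 3 CBS KO libraries gave much the same picture. Against the WT mean of each gene, the median log2 difference over the 53 genes was -0.63, -0.66 and -0.71 in CBS KO replicates 1, 2 and 3. Among the WT libraries, replicate 3 was the highest for 47 of the 53 genes and replicate 1 the lowest for 36. Without WT replicate 3, 37 of the 53 genes were called lower and their median was -0.64. In that fit 4834 of all 13109 genes tested were called lower.

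Most calls in the upward direction did not hold under every scaling run, and most of those in the downward direction did. The scalings that moved the median of all genes by much moved it down, which goes with more lower calls. No upward shift of that size was tried, so whether the lower calls would hold under one was not tested. Scaling by the library total moved the median of all genes from -0.01 to -0.36, and the deposited TPM values moved it to -0.54. The 53 genes then stood at -1.03 and -1.21, with 47 and 49 genes lower and 3 and 2 higher. By the library total the background was 56.8% of genes tested called lower and 22.8% called higher. In TPM the background was 67.6% of genes tested called lower and 15.3% called higher. Relative to the median of all genes tested, the 53 genes lay between -0.72 and -0.63 over the 15 alternatives, and at -0.665 in the main analysis. A change of library scaling alone leaves this difference almost unchanged by arithmetic. Of the 38 genes called lower, 37 kept that call under every alternative run, and the exception was UTP15. Of the 6 called higher, POLR1D and DDX21 kept it. Of the 9 that did not pass the test, 0 kept both direction and outcome under every alternative.

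**Figure D2:**
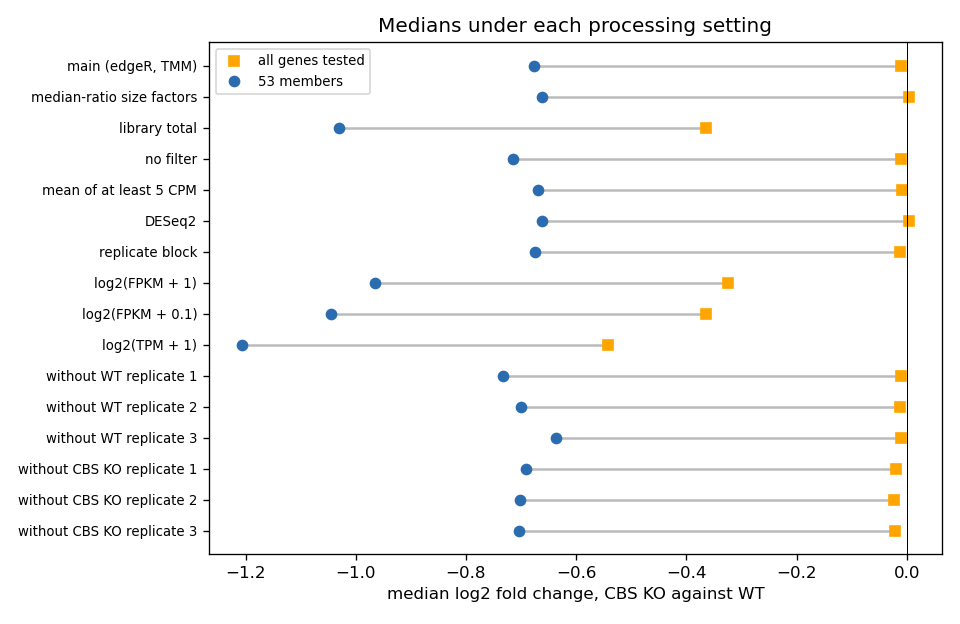
Median log2 fold change (horizontal axis, log2 units) of the 53 genes (circles) and of all genes tested (squares) under the main analysis and each alternative. Both medians shift together when the scaling changes, and the gap between them stays between -0.72 and -0.63. A change of library scaling alone shifts all genes nearly alike, so it leaves the gap almost unchanged by arithmetic.

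Transcripts of the catalytic subunits of RNA polymerase I fell. Of 8 genes of the polymerase and its factors, 6 fell (75%), 1 rose (12.5%) and 1 did not pass. Over all genes tested these shares were 38.9% lower and 38.4% higher. The median of the 8 genes was -0.95 (log2 fold change). POLR1A encodes the subunit that forms much of the active centre. It stood at 102, 103 and 111 CPM in the WT libraries and at 21.3, 23.6 and 22.8 CPM in the CBS KO libraries, 4.67-fold lower (log2 fold change -2.22, SE 0.07, adjusted p = 1.31e-13). The groups lay far apart, and no other of the 53 genes fell as far. The gene spans 86020216 to 86105886 on the minus strand of chromosome 2 (GRCh38), with 34 exons in its principal transcript. In FPKM it went from 9.78 ± 0.45 to 1.64 ± 0.07 (SD, n = 3 in each group).

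POLR1B, whose product completes the catalytic centre with that of POLR1A, stood at 36.5, 36.3 and 41.95 CPM in WT and at 16.2, 15.5 and 16.99 CPM in CBS KO, 2.35-fold lower (log2 fold change -1.24, SE 0.09, adjusted p = 1.31e-09). UBTF, the factor that binds the ribosomal DNA, stood at 82.4, 75.3 and 84.5 CPM in WT and at 33.6, 29.8 and 31.5 CPM in CBS KO, 2.55-fold lower (log2 fold change -1.35, SE 0.07, adjusted p = 7.09e-11). For both genes each CBS KO library was below 50% of the lowest WT library. POLR1C, an assembly platform shared with RNA polymerase III, stood at 19.1, 20.96 and 22.2 CPM in WT and at 9.26, 8.09 and 10.4 CPM in CBS KO, 2.24-fold lower (log2 fold change -1.16, SE 0.11, adjusted p = 4.17e-08). TCOF1, the nucleolar protein treacle, and RRN3 also fell, with log2 fold changes of -0.75 and -0.48.

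POLR1D, the partner of POLR1C in both polymerases, went the other way. It stood at 91.5, 92.4 and 93.5 CPM in WT and at 156, 165 and 181 CPM in CBS KO, 1.81-fold higher (log2 fold change 0.85, SE 0.06, adjusted p = 2.62e-09). The WT libraries lay close together and all CBS KO libraries lay above them. The size of the rise depended on the scaling, with log2 fold changes of 0.50 by the library total and 0.38 in TPM. POLR1E, the polymerase-associated subunit PAF53, stood at 19.4, 17.2 and 19.2 CPM in WT and at 15.0, 18.3 and 16.7 CPM in CBS KO. Its groups overlapped and it did not pass the test (log2 fold change -0.16, interval -0.37 to 0.04, adjusted p = 0.127).

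**Figure D3:**
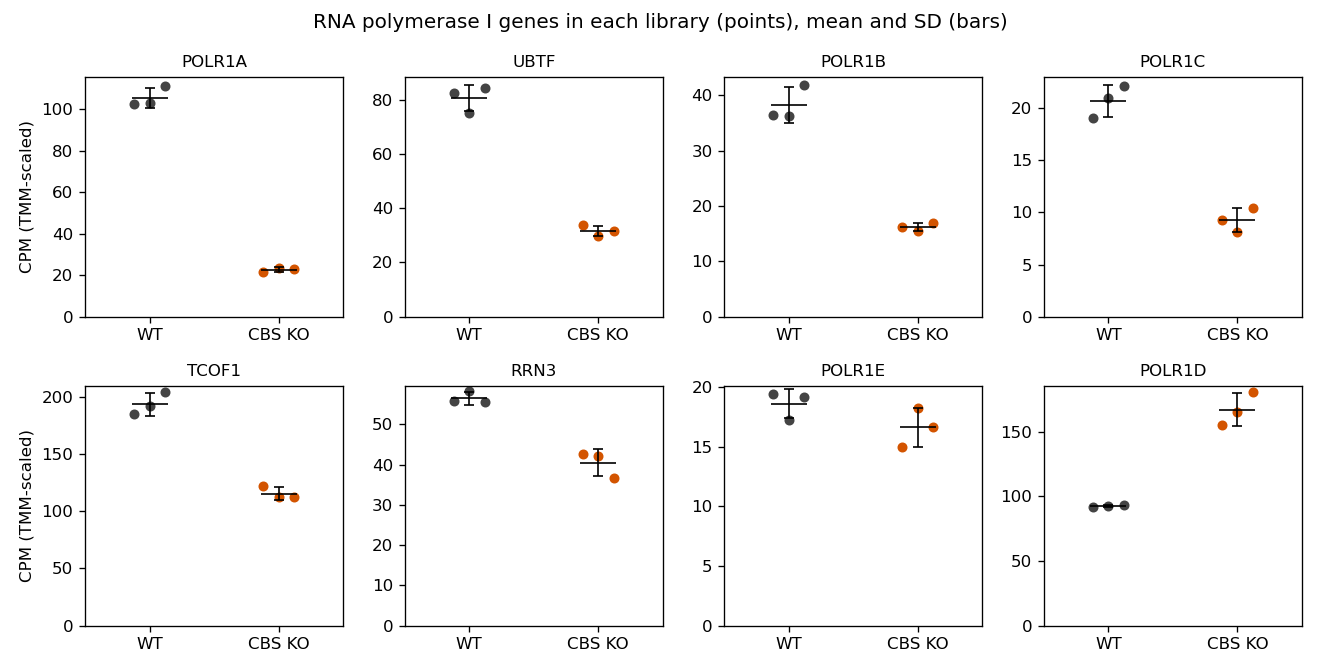
CPM (vertical axis, from 0) of the 8 genes of RNA polymerase I and its factors in each library (points), with the mean and SD of each group of 3 (bars). CBS KO points lie below the WT points in POLR1A, UBTF, POLR1B, POLR1C, TCOF1 and RRN3, above them in POLR1D (156 to 181 against 91.5 to 93.5 CPM), and among them in POLR1E.

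A share of one transcript among the subunits of its own complex does not depend on the scaling of the library. These complexes were chosen after the values were seen, and the shares are given without a test. Of the summed FPKM of the 5 RNA polymerase I subunits in the list, POLR1D took 70.6% ± 1.24 in WT and 90.3% ± 0.43 in CBS KO (SD, n = 3 in each). POLR1A took 5.26% ± 0.17 in WT and 0.737% ± 0.05 in CBS KO, and POLR1C 13.7% ± 1.05 and 3.84% ± 0.34. In each of these 3 genes no CBS KO library overlapped the WT libraries, so the subunit mRNAs changed unequally.

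Transcripts of some core proteins of the other complexes also changed unequally. Among the box C/D proteins, which guide methylation of the precursor RNA, NOP56 took 16.6% ± 1.25 of the summed FPKM in WT and 7.59% ± 0.32 in CBS KO, while the methyltransferase FBL took 74.4% ± 1.28 and 83.95% ± 0.88. The share of NOP58, the paralog of NOP56, was 8.93% ± 0.15 and 8.46% ± 0.62, with overlapping libraries. In the PES1-BOP1-WDR12 complex of large subunit assembly, BOP1 took 41.2% ± 3.01 in WT and 31.1% ± 2.91 in CBS KO, and PES1 51.7% ± 2.61 and 61.2% ± 3.27. WDR12 took 7.04% ± 0.4 and 7.715% ± 0.46, with overlapping libraries. These shares are relative, so a share can rise while its own mRNA does not. FBL went from 361 ± 11.6 FPKM in WT to 308 ± 18.6 FPKM in CBS KO, and PES1 was 1.61-fold lower in CPM.

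**Figure D4:**
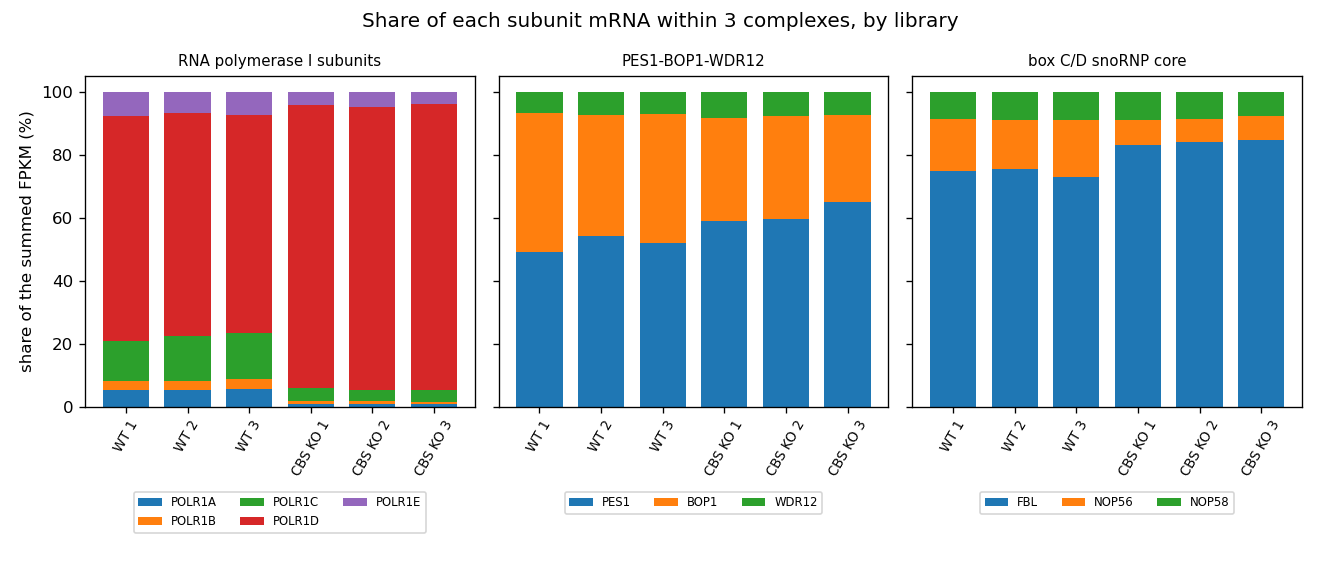
Share of each subunit mRNA in the summed FPKM of its complex (vertical axis, percent) in each of the 6 libraries, for RNA polymerase I subunits, PES1-BOP1-WDR12 and the box C/D core. POLR1D takes 69.2 to 71.5% in the WT libraries and 89.99 to 90.8% in the CBS KO libraries.

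The snoRNP proteins and nucleolar organisers were the most mixed list, with 5 of 9 lower (55.6%), 2 higher (22.2%) and 2 not passing the test. Beside them, 38.9% of all genes tested were called lower and 38.4% higher. The median log2 fold change of the list was -0.55. MYBBP1A, a nucleolar protein that binds MYB and takes part in rRNA processing, stood at 21.8, 21.3 and 27.5 CPM in WT and at 8.20, 6.24 and 6.26 CPM in CBS KO, 3.41-fold lower (log2 fold change -1.77, SE 0.13, adjusted p = 3.93e-09). NOP56 stood at 108, 108 and 129 CPM in WT and at 49.5, 48.4 and 54.3 CPM in CBS KO, 2.27-fold lower (log2 fold change -1.18, SE 0.08, adjusted p = 8.16e-10). In both genes WT replicate 3 was the highest library, and the WT and CBS KO libraries did not overlap. NCL, the abundant nucleolar protein nucleolin, stood at 635, 686 and 733 CPM in WT and at 338, 354 and 352 CPM in CBS KO, 1.97-fold lower (log2 fold change -0.98, SE 0.06, adjusted p = 6.93e-10). The pseudouridine synthase DKC1 and the snoRNP chaperone NOLC1 fell with log2 fold changes of -0.66 and -0.55.

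DDX21, a helicase that acts on both ribosomal RNA synthesis and snoRNA release, was the gene that rose furthest. It stood at 157, 164 and 189 CPM in WT and at 328, 309 and 291 CPM in CBS KO, 1.82-fold higher (log2 fold change 0.87, SE 0.07, adjusted p = 8.71e-09). All CBS KO libraries were above all WT libraries; by the library total the log2 fold change was 0.51, and in TPM 0.28 with an adjusted p of 0.0128 by limma. NPM1, the nucleolar chaperone nucleophosmin, was the most abundant of the 53 genes, at 1682, 1799.99 and 1812 CPM in WT and 1998, 2138 and 2220.2 CPM in CBS KO, with a log2 fold change of 0.26 (SE 0.07, adjusted p = 0.00281). This rise turned into a log2 fold change of -0.09 by the library total and of -0.32 in TPM. NPM1 also has 45 named pseudogenes in the annotation, and how reads with several matches were counted is not given in the sources used here. FBL stood at 202, 212 and 212 CPM in WT and at 206, 224 and 254 CPM in CBS KO, with overlapping groups, and did not pass the test (log2 fold change 0.13, interval -0.02 to 0.27, adjusted p = 0.0997), although it did so without CBS KO replicate 1 (adjusted p = 0.0111).

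The small subunit processome was the list with the highest share of lower calls, 12 of 14 (85.7%), with 0 higher and a median of -0.61. All genes tested stood at 38.9% lower and 38.4% higher. NAT10, which acetylates cytidines of the small subunit RNA, stood at 84.98, 90.1 and 93.7 CPM in WT and at 34.4, 36.0 and 37.2 CPM in CBS KO, 2.50-fold lower (log2 fold change -1.32, SE 0.07, adjusted p = 3.91e-11). RRP9, a protein of the U3 snoRNP, had the lowest counts of the list, at 8.07, 8.06 and 11.1 CPM in WT and 4.02, 3.69 and 3.98 CPM in CBS KO, 2.32-fold lower (log2 fold change -1.22, SE 0.16, adjusted p = 2.86e-06). Both showed a clear gap between the groups. The helicase DDX52 stood at 58.5, 58.0 and 59.9 CPM in WT and at 29.9, 30.5 and 22.2 CPM in CBS KO, 2.14-fold lower (log2 fold change -1.10, SE 0.09, adjusted p = 2.13e-08). UTP20, a very large scaffold protein, stood at 26.6, 27.0 and 28.7 CPM in WT and at 14.8, 16.0 and 12.9 CPM in CBS KO, 1.88-fold lower (log2 fold change -0.91, SE 0.09, adjusted p = 1.02e-07). In DDX52 and UTP20, CBS KO replicate 3 was the lowest library.

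The other 8 processome genes that fell had log2 fold changes between -0.79 (NOC4L) and -0.26 (UTP15). They include UTP4, UTP15, UTP18 and HEATR1, which bind the first part of the precursor RNA, and NOP14 with its partner NOC4L. The HEATR1 mRNA overlaps LGALS8 on the opposite strand over 24.8% of its length, so reads can be shared there too. UTP15 was the weakest call of the 38 (adjusted p = 0.0289), and it was lost with DESeq2 (adjusted p = 0.0973), without WT replicate 3 (0.116) and without CBS KO replicate 3 (0.0748). The helicase DDX10 stood at 39.1, 43.996 and 44.5 CPM in WT and at 46.7, 45.6 and 45.7 CPM in CBS KO. It missed the threshold (log2 fold change 0.11, interval -0.04 to 0.27, adjusted p = 0.156). WDR75 did not pass either, with a log2 fold change of -0.11.

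Later small subunit assembly held 4 lower genes (66.7%, all genes tested 38.9%) and 1 higher (16.7%, all genes tested 38.4%). A further 1 did not pass, and the median was -0.64. BYSL, the assembly factor bystin, stood at 22.96, 26.3 and 28.0 CPM in WT and at 10.4, 11.2 and 11.5 CPM in CBS KO, 2.33-fold lower (log2 fold change -1.22, SE 0.10, adjusted p = 9.01e-09). RRP12, which serves export of the subunits, stood at 22.9, 24.4 and 26.8 CPM in WT and at 13.4, 13.97 and 13.98 CPM in CBS KO, 1.79-fold lower (log2 fold change -0.84, SE 0.09, adjusted p = 2.66e-07). The groups were apart in both. TSR1, which occupies the maturing subunit in the cytoplasm, stood at 88.1, 87.2 and 95.5 CPM in WT and at 59.3, 58.5 and 52.9 CPM in CBS KO, 1.59-fold lower (log2 fold change -0.67, SE 0.07, adjusted p = 1.72e-07). LTV1, a factor released late in the same maturation, stood at 28.6, 26.8 and 30.5 CPM in WT and at 19.9, 18.5 and 17.3 CPM in CBS KO, 1.54-fold lower (log2 fold change -0.62, SE 0.09, adjusted p = 4.87e-06). Other annotated protein-coding genes cover 27.7% of the LTV1 mRNA on the same strand and 22.1% of the TSR1 mRNA on the opposite strand, so their reads can be shared.

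NOB1, the endonuclease that makes the final cut of the small subunit RNA, and its partner PNO1 did not follow in the main analysis. In TPM all 6 genes of this list, PNO1 and NOB1 included, were called lower, where 67.6% of all genes tested were. PNO1 stood at 19.6, 20.5 and 23.8 CPM in WT and at 19.3, 20.9 and 22.03 CPM in CBS KO, with overlapping groups (log2 fold change -0.04, interval -0.23 to 0.16, adjusted p = 0.741). NOB1 had a log2 fold change of 0.25 (SE 0.06, adjusted p = 0.00236), which became -0.11 by the library total and -0.34 in TPM. An annotated antisense gene covers 24.7% of the NOB1 mRNA, and the use of strand in the counting is not given in the sources used here.

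Large subunit assembly held 11 lower genes (68.8%, all genes tested 38.9%) and 2 higher (12.5%, all genes tested 38.4%). The other 3 of its 16 genes did not pass, and the median was -0.75. RRP1, a nucleolar factor of this branch, stood at 23.1, 25.7 and 28.8 CPM in WT and at 8.36, 7.91 and 8.21 CPM in CBS KO, 3.16-fold lower (log2 fold change -1.66, SE 0.11, adjusted p = 4.57e-10). DDX56, a helicase, stood at 45.98, 47.7 and 48.5 CPM in WT and at 18.2, 18.2 and 18.5 CPM in CBS KO, 2.59-fold lower (log2 fold change -1.37, SE 0.07, adjusted p = 4.54e-11). For both, the CBS KO libraries differed among themselves by less than 0.5 CPM. BOP1 stood at 39.9, 39.5 and 51.1 CPM in WT and at 19.0, 17.7 and 20.001 CPM in CBS KO, 2.30-fold lower (log2 fold change -1.20, SE 0.10, adjusted p = 3.11e-08). RRS1, which helps to bring the small ribosomal RNA of the large subunit into the particle, stood at 11.6, 12.2 and 14.9 CPM in WT and at 4.75, 6.06 and 6.42 CPM in CBS KO, 2.25-fold lower (log2 fold change -1.17, SE 0.14, adjusted p = 8.09e-07).

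The other 7 genes of this list that fell had log2 fold changes from -1.05 in NOP2, an RNA methyltransferase, to -0.64 in MDN1, the giant ATPase that strips assembly factors from the particle. EBNA1BP2, WDR12, RRP1B, NOC2L and PES1 lay between. NOP2 shares 83.5% of its mRNA with another annotated gene on the same strand, so how its reads were assigned is uncertain. The nucleolar GTPases GNL2 and GNL3 (nucleostemin) rose, with log2 fold changes of 0.63 (SE 0.07, adjusted p = 4.14e-07) and 0.48 (SE 0.07, adjusted p = 7.64e-06). In TPM the GNL2 value was 0.05 (adjusted p = 0.514 by limma) and the GNL3 value -0.11. NOC3L stood at 13.7, 13.2 and 14.0 CPM in WT and at 14.5, 14.7 and 12.6 CPM in CBS KO, with overlapping groups (log2 fold change 0.03, interval -0.18 to 0.23, adjusted p = 0.797). NIP7 and DDX18 had log2 fold changes of -0.15 and -0.13 and did not pass.

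Per length, the 53 genes covered a wide range of levels. In WT, NPM1 was at 1924 ± 81.7 FPKM, followed by FBL at 361 ± 11.6, NCL at 213 ± 15.9, POLR1D at 131 ± 0.85, NOP56 at 80.8 ± 8.58 and NOB1 at 62.96 ± 1.14 (SD, n = 3). The WT libraries of each of these 6 genes did not overlap those of the next gene in the order. From EBNA1BP2 at rank 7 on, most neighbours overlapped, down to UTP15 at 3.45 FPKM. In CBS KO, POLR1D (201 ± 11.9 FPKM) passed NCL (84.9 ± 1.73 FPKM), and POLR1A moved from rank 44 to rank 51. In FPKM, 48 of the 53 genes were lower in every CBS KO library than in every WT library, and 3 were higher in every one; of all genes tested, 57.1% and 23.2% were so in FPKM. Summed over the 53 genes, CPM went from 5490 ± 286 in WT to 4825 ± 128 in CBS KO, a change of -12.1%. Without NPM1 the sums were 3725 ± 226 and 2706 ± 15.4, a change of -27.4%. The size of this change depended on the scaling: without TMM the 53 genes took 0.620% ± 0.034 of the counts in WT and 0.427% ± 0.0036 in CBS KO (-31.3%), and their sum changed by -31.5% in TPM and by -19.6% in FPKM.

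The rest of the pathway, read in lists also drawn up with earlier results known, also held more genes that fell than rose. Of 124 other ribosome biogenesis genes tested, 78 fell (62.9%), 20 rose (16.1%) and 26 missed the threshold. Of all genes tested, 38.9% were called lower and 38.4% higher. The median log2 fold change of the 124 genes was -0.41. By the library total, where 56.8% of all genes tested were called lower, 101 of the 124 fell and 9 rose. Among 41 other small subunit factors, 30 fell and 3 rose, with PWP2 (2.73-fold lower) and WDR3 (2.52-fold lower), both scaffold proteins of the processome, in front. Among 47 other large subunit factors, 29 fell and 10 rose, and the methyltransferase FTSJ3 went from 63.9 ± 7.64 to 11.1 ± 2.31 CPM, 5.75-fold lower (log2 fold change -2.52, adjusted p = 1.23e-10), followed by URB2 (3.61-fold lower). A list of 14 genes held the RNA exosome, which trims the precursor RNAs, its cofactors and the separate exonuclease XRN2. Of these 10 fell, XRN2 included, with EXOSC2 (3.17-fold lower) and EXOSC4 (2.67-fold lower) in front, and 1 rose, the cofactor C1D. Among 12 other snoRNP proteins, 5 fell (41.7%, near the share of all genes tested) and 2 rose (16.7%). The assembly ATPases RUVBL1 and RUVBL2 were 2.60-fold and 2.05-fold lower.

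The other 10 genes of RNA polymerase I were divided, with 4 lower and 4 higher (40% each) and a median of 0.09. These shares are near those of all genes tested, 38.9% lower and 38.4% higher. TAF1D, a subunit of the promoter selectivity factor, went from 30.8 ± 1.31 to 152 ± 15.2 CPM, 4.91-fold higher (log2 fold change 2.30, adjusted p = 2.17e-13). POLR1G, a polymerase subunit, went from 5.55 ± 1.21 to 1.53 ± 0.06 CPM, 3.61-fold lower (log2 fold change -1.85, adjusted p = 6.22e-07), and overlaps ERCC1 on the opposite strand.

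Other polymerases gave a backdrop, to be read beside the 38.9% of all genes tested called lower and the 38.4% called higher. Of 11 subunits of RNA polymerase III outside RNA polymerase I, 7 fell and 2 rose (median -0.25), with POLR3B 3.64-fold lower. Of 7 subunits found only in RNA polymerase II, 3 fell (42.9%, near the share of all genes tested) and 2 rose (median -0.11). Its catalytic subunit POLR2A was 2.01-fold and POLR2D 1.67-fold lower. Of the 5 subunits that all 3 polymerases share, 3 fell and 2 rose, with POLR2L 1.58-fold lower and POLR2K 1.38-fold higher. The differences between these lists were not tested.

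Transcripts of the proteins of the ribosome itself rose. All 79 cytosolic ribosomal protein genes tested were called higher, with a median log2 fold change of 0.97, and RPL26 and RPS19 were 2.42-fold and 2.38-fold higher. RPS20, named in the title of the study, stood at 463, 442 and 469 CPM in WT and at 734, 836 and 923 CPM in CBS KO, with a log2 fold change of 0.86 (SE 0.08, adjusted p = 2.36e-08). In TPM, 73 of the 79 were higher and the median was 0.38, where 15.3% of all genes tested were higher. Many of these genes have processed pseudogenes, so the split of their reads is uncertain.

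The choice of the list did not use gene structure. The principal transcripts of the 53 genes had a median of 15 exons, against 9 for the 12962 protein-coding genes tested and 5 for the ribosomal protein genes. Their coding length had a median of 2010 bases, against 1395, and their mRNA a median of 2790 bases, against 3128. Across the 53 genes, Spearman's rho of mRNA length with the log2 fold change was -0.249, and across the protein-coding genes -0.0747. For coding length the values lay closer together, at -0.215 and -0.183. These are descriptions across genes, which share the same libraries and are not independent replicates. By quartiles of mRNA length over all protein-coding genes tested, from shortest to longest, the medians of the 53 genes were -0.58 (12 genes), -0.68 (17), -0.55 (15) and -0.84 (9). The medians of all genes in the same quartiles were 0.11, -0.04, -0.07 and -0.04. In the quartile of longest mRNAs all 9 of the biogenesis genes were called lower, where 41.7% of all its genes were.

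Counting the first listed window of each gene, the E-box CACGTG stood in 19 of 43, 44.2%, against 10% of the 10523 windows of genes tested, 7.43% of all 27305 windows and 3 of 63 windows (4.76%) of ribosomal protein genes. By role it was found in 8 of 13 windows of the small subunit processome, 6 of 12 of large subunit assembly, 3 of 5 of later small subunit assembly, 2 of 7 of the snoRNP list and 0 of 6 of RNA polymerase I. The genes called lower held it in 15 of 31 of these windows (48.4%) and those called higher in 1 of 6, GNL2. With every listed window counted, DDX21 and GNL3 were added: 21 of 43 genes (48.8%) then held it, 15 of 31 called lower and 3 of 6 called higher, against 12.5% of genes tested, 6.35% of ribosomal protein genes and 0 of 6 genes of RNA polymerase I. The median log2 fold change was -0.68 in the 19 biogenesis genes with an E-box and -0.66 in the 24 with a window but no E-box, by first windows; with every window counted it was -0.64 in 21 and -0.71 in 22. Over all genes tested these medians were -0.08 and -0.01 by first windows. A match describes the letters of the window and is no evidence of binding.

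In most of these genes the E-box lay close to the start. In 17 of the 19 genes (89.5%) at least 1 E-box began within 40 bases of the start, as in the stretches of NAT10, RRP9 and GNL2 shown above, and in 346 of 1054 tested genes with an E-box (32.8%) it did so. With every window counted these shares were 90.5% and 33.2%. The distance of 40 bases was chosen after the positions were seen. Of the other motifs, searched on both strands of the first windows, CCGGAAG, the core of ETS family sites, was in 32.6% of the windows, against 18.9% of those of genes tested. GGGCGG was in 72.1% against 69.5%, AAGATGGC in 4.65% against 5.25%, TATAAA in 4.65% against 5.94% and GAANNTTC in 4.65% against 4.53%.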

How the data were processed

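Messenger RNA of 6 Caco-2 libraries (3 WT, 3 CBS KO) was read from 1 deposited table. Per the labels' protocols, Trizol RNA was selected on oligo(dT) beads and made into libraries with a dUTP-marked second strand. The build GRCh38 and the tools HISAT2 2.2.1, StringTie 2.1.6, cutadapt 1.9, edgeR and DESeq2 are listed, with no role, in the submitters' processing notes. The authors deposited estimated counts per gene, 7.12 to 7.43% of them not whole, and FPKM and TPM values, per the file headers. How reads were assigned to genes, and whether by strand, is not given in the sources used here.

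The estimated counts were rounded, filtered with edgeR's filterByExpr, scaled with TMM factors and tested by a robust quasi-likelihood fit without covariates (R 4.3.3, edgeR 4.0.16, limma 3.58.1; DESeq2 1.42.0 was an alternative). Benjamini-Hochberg adjustment covered the 13028 tested genes, and calls were made under an adjusted p of 0.05. Intervals are 95% intervals of the log2 fold change. FPKM and TPM were tested as alternatives with limma on log2(value + 1), and FPKM also on log2(value + 0.1), for genes with a value of 1 in at least 3 libraries. A count of 0 in a library allows 0.164 to 0.264 CPM (3 counts), which covers counting error only.

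The genes and all lists were chosen with earlier results of these data known, so lists are described by counts and medians with no test. Values in every library are given for up to 4 called genes per role list with the largest change and for the gene with the smallest; from each other list the 2 called genes with the largest change are named, except 1 that is not reported here. Other genes named were chosen after their values were seen. Libraries of a group differed by more than counting noise (chi-square per degree of freedom 1.97 or more), so none was a plain copy of another. This check cannot tell whether libraries were made from the same RNA or the same culture. Gene models come from GENCODE v29 and promoter windows from RefSeq (GRCh38.p14). In 39 of the 43 first listed windows the last 25 bases lie in an annotated transcript of the gene in the printed direction. The count test was tested on simulated data.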

Additional observations from a re-analysis of the deposited data

How the results depend on the processing

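Scaling was the choice that moved these results most. Over all genes the median log2 fold change went from -0.01 to 0.0031 with median-ratio size factors, 0.0032 with DESeq2, -0.36 with the library total, -0.32 with log2(FPKM + 1), -0.37 with log2(FPKM + 0.1) and -0.54 with log2(TPM + 1). The last 4 tested 13028, 11880, 11880 and 12274 genes, and the main analysis 13028. FPKM and TPM also had another filter and another test (limma). Under these 4, all genes called higher numbered 2966, 2722, 2715 and 1878, beside 4998 in the main analysis. All genes called lower numbered 7403, 6876, 6855 and 8294, beside 5062. Ribosome biogenesis genes called higher numbered 3, 3, 3 and 2 instead of 6, and those called lower 47, 47, 47 and 49. The median of the 53 genes was -1.03, -0.97, -1.05 and -1.21. Other pathway genes called higher numbered 9, 9, 9 and 6 instead of 20. The share of calls that were higher went from 49.7% of all genes and 13.6% of the 53 to 28.6% and 6% with the library total and 18.5% and 3.92% in TPM.

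Reversed in sign were NPM1 (-0.091, -0.088, -0.088 and -0.32), DDX10 (-0.24, -0.22, -0.24 and -0.45), NOB1 (-0.11, -0.11, -0.11 and -0.34), FBL (-0.23, -0.23, -0.23 and -0.46) and NOC3L (-0.32, -0.27, -0.32 and -0.48) under these 4 settings, GNL3 (-0.11) in TPM and NOC3L (-0.0096) without a filter. Leaving out 1 library at a time, 37 to 40 of the 53 genes were lower and 6 or 7 higher, with a median of -0.73 to -0.64 (all genes -0.023 to -0.011). In these fits 4818 to 5234 of all genes were lower and 4744 to 5028 higher, of 13102 to 13211 tested. PNO1 then ranged from -0.10 to 0.049 and NOC3L from -0.015 to 0.084. Of the 53 genes, 39 kept direction and call under every alternative run.

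Deviations of same-numbered libraries of the groups had correlations of 0.0405, 0.0174 and 0.022, and those of differently numbered libraries ran from -0.0466 to 0.0235. Values this near 0 cannot settle whether same-numbered libraries shared a culture or a day, which the labels do not give. With the replicate block, 38 genes were lower and 6 higher, with a median of -0.68, and 5058 of all genes were lower and 4986 higher. Among the 53 genes RRP9, with the lowest counts, had the widest standard error (0.16).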
